A study of Mus musculus with 8 samples.

Results

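The G2/M and mitosis genes are 45 genes that drive a cell from the end of DNA replication through chromosome segregation and cell division, taken by name from a list and read through every probe set that the array annotation gives to 1 of them alone. Of the 45 genes, 44 had such a probe set and all 44 passed the filter on low signal, among 17790 genes tested in the series. The gene left, Ccnb1, was not analysed here. The members had 101 probe sets, of which 98 of the 42703 in the series passed the filter. Whole liver RNA of BALB/c mice, 8 weeks old, was measured on 8 Affymetrix mouse arrays in 4 groups of 2, and each array held the pooled RNA of 3 mice. All mice had received a recombinant adenovirus (rAd.) 5 days before a 78% liver resection (LR). The post-A20 livers carried rAd.A20, which encodes human A20, and were the remnant taken 24 h after LR. The pre-A20 livers carried the same vector and were the lobes removed at LR. The post-βgal and pre-βgal livers were the remnant and the removed lobes of mice given the control vector rAd.βgal, which encodes β-galactosidase. The vector reaches only 30 to 40% of hepatocytes, no group went without vector, and no sham operation was measured. The treatment text of both post-A20 samples names the control vector, whereas their titles and sources name A20, and the titles were followed. The transgene is human and the arrays carry probes for mouse genes, so the level of the transgene itself was not read. With the groups as titled, S100a8 and S100a9, which code for the subunits of calprotectin, and Cdkn1a, which codes for the CDK inhibitor p21, had lower signals in A20 than in βgal livers at both times. Their log2 fold changes were −2.08, −2.65 and −1.79 before LR (limma, adjusted p = 0.0232, 0.0189 and 0.0202). After LR they were −2.23, −2.51 and −1.02 (adjusted p = 0.0278, 0.0177 and 0.0928).

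A hepatocyte of the resting adult liver sits outside the cell cycle and re-enters it after a resection. Cyclin B with the kinase CDK1 starts mitosis, polo and aurora kinases build the spindle, condensins compact the chromosomes, the checkpoint proteins hold anaphase until every chromosome is attached, and a ring of proteins at the cell's middle divides the cytoplasm. The genes of these steps are transcribed together late in the cycle, mainly through the CHR element, which the MuvB complexes bind with B-MYB or with the p130 repressor, and through CCAAT boxes, which NF-Y binds. In mouse liver the first round of mitosis comes later than the first round of DNA synthesis, and many hepatocytes hold several sets of chromosomes or more than 1 nucleus.

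The promoters of the members shared the letters of both elements. RefSeq promoter windows of GRCm38.p6, each 300 bases long with 250 before and 50 after the start of the gene, were matched by symbol for 38 of the 45 genes. The table used here had no window for Cdc25c, Foxm1, Aurkb, Pbk, Smc4, Tpx2 and Kif20a. Both strands were searched for TTTGAA or TTCGAA, the core letters of the CHR, and for CCAAT, and matches of the 2 kinds can share 1 base. A CHR core lay in 29 of the 38 windows (76.3%) against 19.4% of the 27025 windows of all genes, a CCAAT in 30 (78.9%) against 37.9%, and both in 27 (71.1%) against 7.7%. At least 2 CCAAT lay in 47.4% of the member windows and in 12.2% of all windows. These matches are letters in a window and were not tested as binding sites. The stretches from 120 bases before to 30 bases after the start are shown for 6 of the 9 members that rose after LR in A20 livers, described below by their signals, and for Bub3, a member whose signal was lower in post-A20 than in post-βgal livers. Capitals mark complete CHR cores and CCAAT boxes, and each stretch runs 5′ to 3′ on the strand of its gene. Top2a lies at chr11:99024160-99024309, minus strand, Ncapg at chr5:45669805-45669954, plus strand, Ect2 at chr3:27153849-27153998, minus strand, Ube2c at chr2:164769809-164769958, plus strand, Kif11 at chr19:37376262-37376411, plus strand, Melk at chr4:44300797-44300946, plus strand, and Bub3 at chr7:131560250-131560399, plus strand.
Top2a: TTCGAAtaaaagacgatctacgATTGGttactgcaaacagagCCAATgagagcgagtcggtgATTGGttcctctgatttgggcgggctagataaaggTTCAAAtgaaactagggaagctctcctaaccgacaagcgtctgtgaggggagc
Ncapg: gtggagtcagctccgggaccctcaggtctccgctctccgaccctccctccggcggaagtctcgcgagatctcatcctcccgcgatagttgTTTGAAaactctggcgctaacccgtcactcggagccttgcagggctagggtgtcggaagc
Ect2: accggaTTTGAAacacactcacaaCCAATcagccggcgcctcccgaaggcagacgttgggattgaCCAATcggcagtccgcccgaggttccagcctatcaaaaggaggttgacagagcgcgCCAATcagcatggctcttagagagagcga
Ube2c: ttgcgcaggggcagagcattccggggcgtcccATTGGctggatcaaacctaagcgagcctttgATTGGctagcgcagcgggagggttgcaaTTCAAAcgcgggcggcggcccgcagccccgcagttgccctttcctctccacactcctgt
Kif11: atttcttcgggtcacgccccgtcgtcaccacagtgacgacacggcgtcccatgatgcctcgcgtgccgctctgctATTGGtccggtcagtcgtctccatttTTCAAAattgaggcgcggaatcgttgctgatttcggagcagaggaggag
Melk: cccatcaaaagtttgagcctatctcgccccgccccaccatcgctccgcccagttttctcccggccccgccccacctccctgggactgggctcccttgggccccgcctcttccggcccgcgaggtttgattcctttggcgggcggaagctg
Bub3: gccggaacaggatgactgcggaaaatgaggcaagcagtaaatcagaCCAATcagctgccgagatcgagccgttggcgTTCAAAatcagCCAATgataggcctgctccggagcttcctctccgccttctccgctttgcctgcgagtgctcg
Members with and without these letters were both found among those that rose. Among the 9 members that rose after LR in A20 livers, 6 windows held both elements, those of Anln and Nek2 held 1 of them and that of Melk held neither. Among the 28 other members tested that had a window, 21 held both. The median log2 fold change after LR in A20 livers was 0.55 over the 27 members with both elements and 0.62 over the 10 without.

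Most of the 44 members had their highest signal in A20 livers 24 h after LR. Both post-A20 arrays lay above all 6 other arrays for 26 of the 44 members, a pattern seen in 6.63% of all genes. The group mean was highest in post-A20 for 36 members, against 22.2% of all genes, and lowest in pre-A20 for 22 members, against 29.1% of all genes. Taking each gene as its deviation from its own mean over the 8 arrays, the median of the members was 0.39 and 0.32 on the log2 scale in the post-A20 arrays and −0.21 and −0.22 in the pre-A20 arrays. It was −0.05 and −0.05 in the post-βgal arrays, and −0.00 and −0.16 in the pre-βgal arrays. The median of all genes stayed between −0.03 and 0.02 on every array. Both pre-A20 arrays lay below the 6 others for 10 members, among them Top2a, Plk1 and Kif23, against 11.3% of all genes. In bulk liver RNA, fewer cells in mitosis and less RNA per mitotic cell cannot be told apart.

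**Figure D1:**
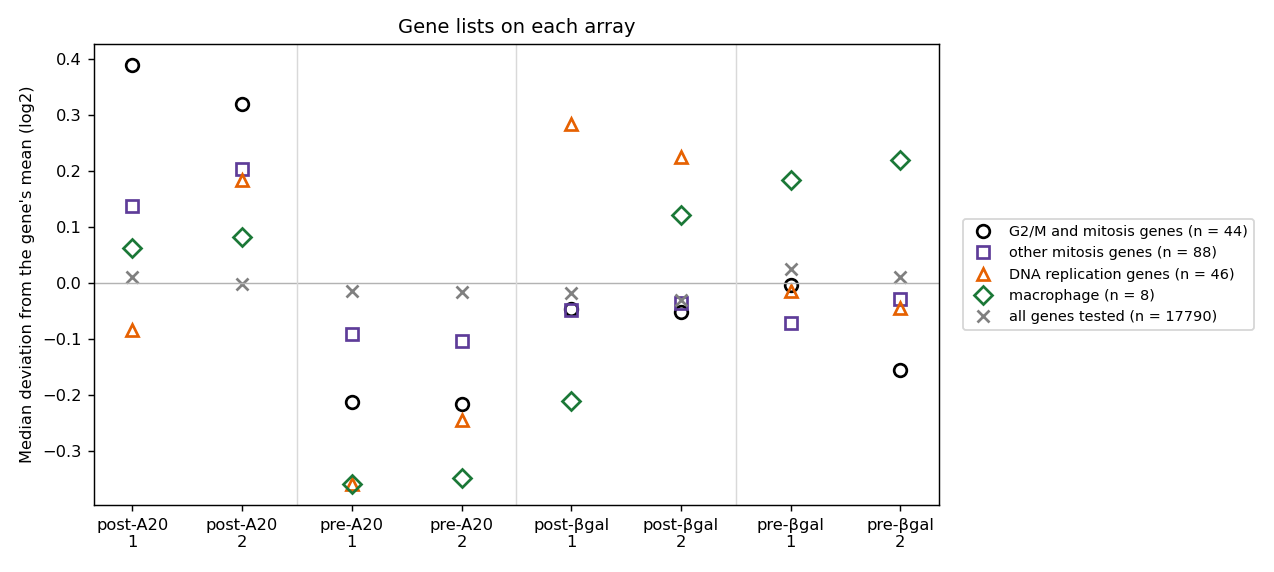
Each point is the median, over the genes of 1 list, of the deviation of a gene from its own mean over the 8 arrays (log2, vertical axis), for each array (horizontal axis, 2 arrays per group). The G2/M and mitosis genes (circles) stood at 0.39 and 0.32 on the post-A20 arrays and between −0.22 and −0.00 on the other 6. Squares are the other mitosis genes, triangles the DNA replication genes, diamonds the macrophage markers and crosses all genes tested.

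The comparison of post-A20 with pre-A20 livers asks how these genes answered LR when hepatocytes carried A20. In A20 livers 9 of 44 members rose and none fell. A gene was called by limma at an adjusted p under 0.05 (Benjamini-Hochberg over all genes, on log2 of the signal plus 16, 2 arrays per group), and the p-values measure the spread between these pools. In the same way 0.63% of all genes rose and 0.382% fell. At an unadjusted p under 0.05, 30 members were higher and 1 was lower (8.88% and 6.54% of all genes). The arrays did not overlap for 36 members above and 1 below, against 29.4% and 22.3% of all genes. The median log2 fold change of the 44 members was 0.60 against 0.02 over all genes tested, and 41 of the 44 were positive. The count rested on single arrays, as leaving 1 out takes its group to 1 array, which is then assumed to vary like the other groups. No member was called without pre-A20 replicate 1, pre-A20 replicate 2 or post-A20 replicate 2, and 2 were called when post-A20 replicate 1 was dropped. Dropping either array of post-βgal left 3 called members, and dropping either array of pre-βgal gave 15. The number of genes called over the whole array fell or rose together with the number of members called in these fits. The median of the members stayed between 0.55 and 0.61 in the 8 fits.

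In βgal livers the same comparison of post-βgal with pre-βgal gave no called member in either direction, where limma called 1.5% of all genes higher and 0.748% lower. Before adjustment 5 members were higher and 2 lower at p under 0.05 (9.74% and 12.4% of all genes). The arrays stood apart for 12 members above and 8 below (20.4% and 33% of all genes). The median log2 fold change was 0.01, with 23 members positive and 21 negative, and the smallest adjusted p of a member was 0.127. Pbk had the highest value, 0.81, and Pttg1 the lowest, −0.49. Without pre-βgal replicate 2, 1 member was called. The difference between the 2 responses was tested directly as an interaction. No gene of the whole array passed it (0% higher and 0% lower), and the smallest adjusted p of a member was 0.212. At an unadjusted p under 0.05, 20 members responded more in A20 than in βgal livers and none less (9.97% and 5.71% of all genes), with a median difference of 0.55 and 41 of 44 positive. The difference in response was thus not called for any single member.

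**Figure D2:**
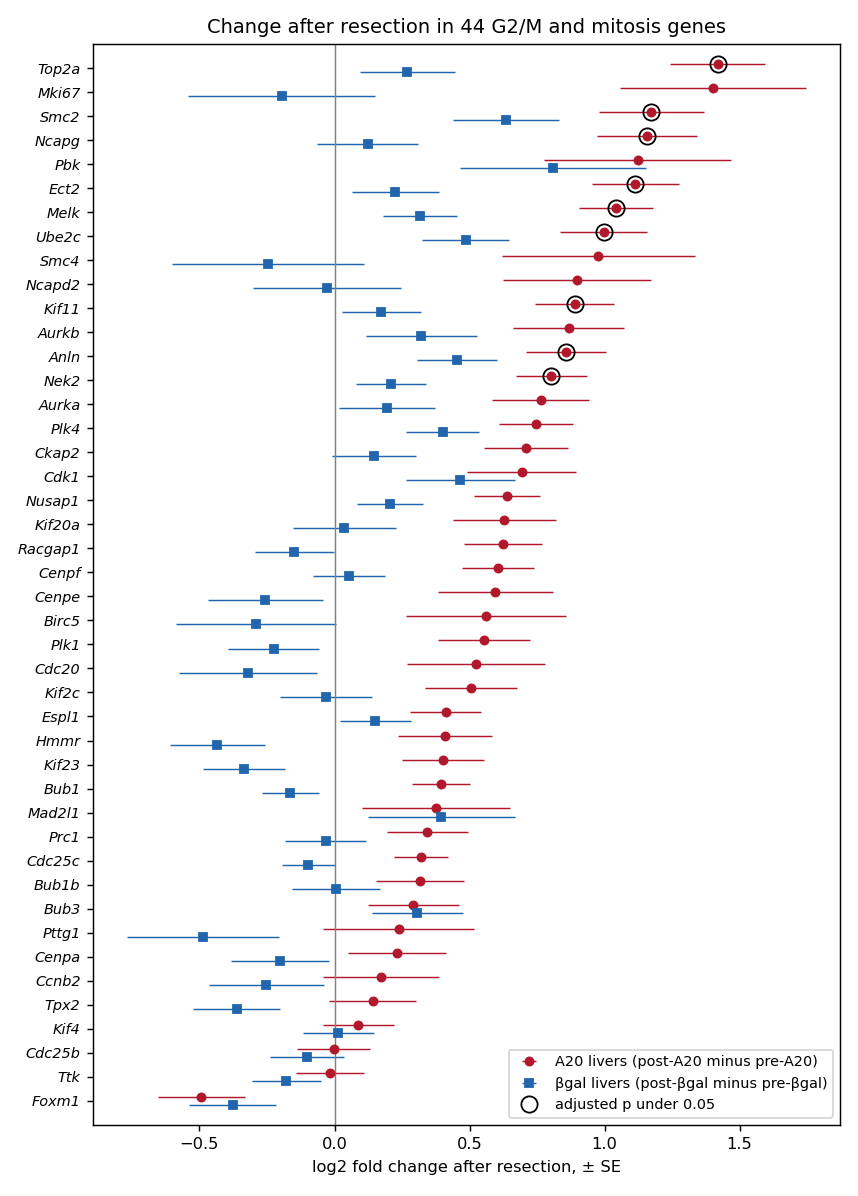
Log2 fold change after LR (horizontal axis, points with SE as bars) of the 44 members (rows, ordered by the value in A20 livers), for A20 livers (red circles) and βgal livers (blue squares), 2 arrays per group. Black rings mark the 9 members with an adjusted p under 0.05, all in A20 livers, and the values in A20 livers are positive for 41 members.

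Among the proteins that shape chromosomes, 3 of 6 rose in post-A20 against pre-A20 livers (0.63% of all genes). All 6 had higher signals on both post-A20 arrays than on both pre-A20 arrays (29.4% of all genes). Top2a, the topoisomerase that untangles sister DNA before anaphase, read 1079.9 and 1237 in post-A20, 425 and 419 in pre-A20, 867 and 874 in post-βgal and 824 and 628 in pre-βgal. It rose 2.67-fold in A20 livers (log2 fold change 1.42 ± 0.18 (SE), adjusted p = 0.0171), whereas the value in βgal livers was 0.27. Its pre-A20 arrays were the lowest of all 8 and its post-A20 arrays the highest. Ncapg, the HEAT-repeat subunit of condensin I, read 259 and 318 in post-A20, 109.6 and 131 in pre-A20, 184 and 148 in post-βgal and 179 and 126 in pre-βgal, a rise of 2.23-fold in A20 livers (log2 fold change 1.16 ± 0.19 (SE), adjusted p = 0.0387). A second probe set of Ncapg had a log2 fold change of 0.08, so the rise rests on 1 of 2 probe sets. Smc2, an ATPase of both condensins, had 452 and 695 in post-A20, 230.1 and 250.0 in pre-A20, 399 and 414 in post-βgal and 267 and 244 in pre-βgal and rose 2.25-fold (log2 fold change 1.17 ± 0.20 (SE), adjusted p = 0.043). In βgal livers its value was 0.64, the largest of this group, with both post-βgal arrays above both pre-βgal arrays. The 4 other Smc2 probe sets lay between −0.32 and 0.32 after LR in A20 livers.

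Mki67, which codes for the Ki-67 coat of mitotic chromosomes, had one of the largest differences and one of the largest spreads. It read 721 and 870.3 in post-A20, 326 and 257 in pre-A20, 479 and 367 in post-βgal and 724 and 319.9 in pre-βgal. The post-A20 arrays were above both pre-A20 arrays, but pre-βgal replicate 1 lay level with post-A20 replicate 1. The log2 fold change after LR was 1.40 in A20 livers (adjusted p = 0.111) and −0.20 in βgal livers (adjusted p = 0.766), and neither was called. Ncapd2, another condensin I subunit, read 411 and 498 in post-A20, 243 and 229 in pre-A20, 392 and 308 in post-βgal and 487 and 257 in pre-βgal, with 0.90 after LR in A20 livers (adjusted p = 0.177). Smc4, the partner of Smc2, read 734 and 802 in post-A20, 285 and 511 in pre-A20, 320.2 and 605 in post-βgal and 437 and 632 in pre-βgal and had 0.98 (adjusted p = 0.243). Replicate 1 minus replicate 2 of Smc4 was −0.81 on the log2 scale in pre-A20 and −0.89 in post-βgal, close in size to its value.

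**Figure D3:**
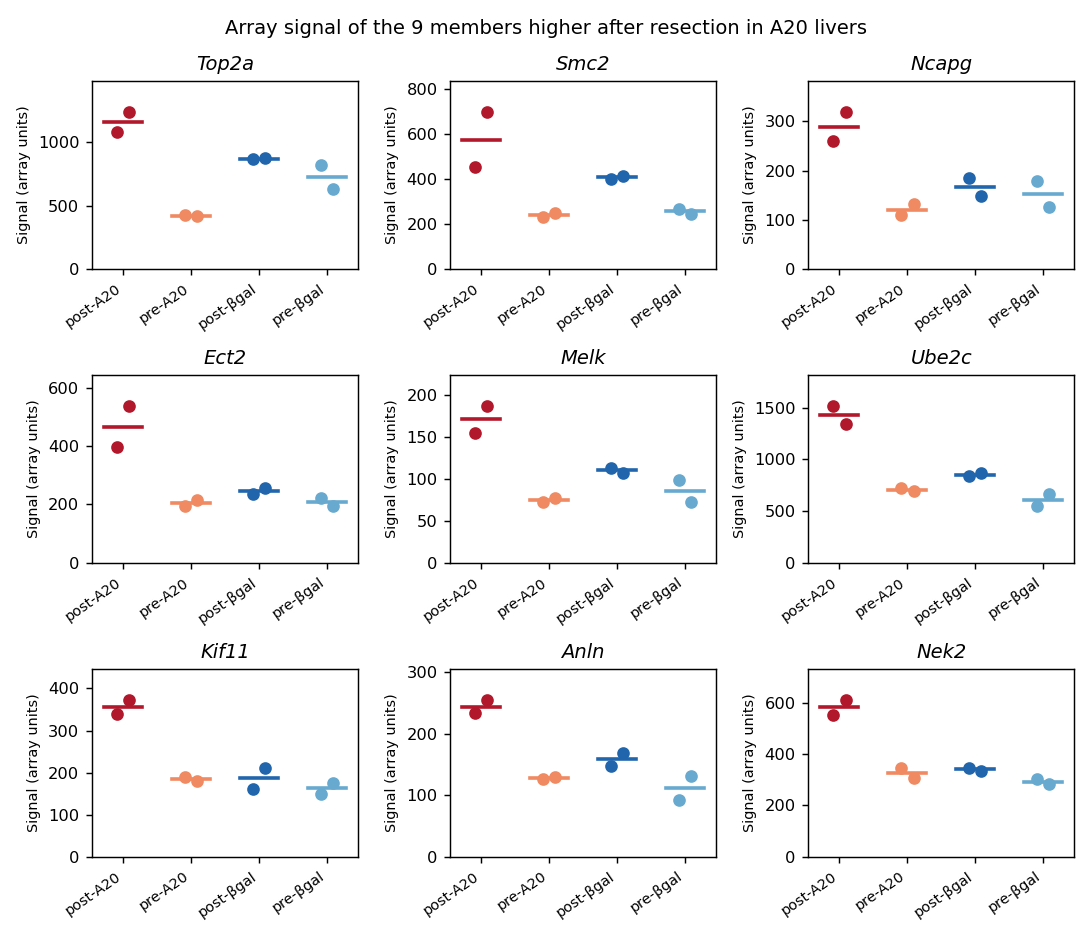
Array signal (vertical axes, linear and from 0) of the 9 members that rose after LR in A20 livers, with 1 point per array and a bar at the mean of each group of 2 arrays. In all 9 panels both post-A20 points lie above the 6 other points.

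Of the 7 mitotic kinases, 2 rose in A20 livers after LR (0.63% of all genes). The arrays of all 7 were higher in post-A20 than in pre-A20 (29.4% of all genes). Melk, a kinase of the AMPK family that is active in dividing cells, read 156 and 187 in post-A20, 72.2 and 77.1 in pre-A20, 113 and 108 in post-βgal and 99.5 and 73.2 in pre-βgal. It rose 2.06-fold in A20 livers (log2 fold change 1.04 ± 0.14 (SE), adjusted p = 0.0203) against a value of 0.32 in βgal livers. Nek2, which loosens the link between the centrosomes, read 555 and 613 in post-A20, 348 and 308 in pre-A20, 346 and 336 in post-βgal and 302 and 284 in pre-βgal and rose 1.74-fold (log2 fold change 0.80 ± 0.13 (SE), adjusted p = 0.0399). Its 3 other probe sets had 0.43, 0.20 and −0.03. Plk4, the kinase that licenses centriole doubling, read 209 and 281 in post-A20, 135 and 141 in pre-A20, 177 and 191 in post-βgal and 132 and 139 in pre-βgal. It was just short of the threshold in A20 livers (log2 fold change 0.75 ± 0.14 (SE), adjusted p = 0.055), and it rose when LR was averaged over both vectors (0.57, adjusted p = 0.0178), with both post arrays above both pre arrays for either vector. Pbk, a mitotic kinase also named TOPK, read 422 and 984 in post-A20, 248 and 333 in pre-A20, 522 and 454 in post-βgal and 265 and 277 in pre-βgal. Its post-A20 arrays were the most unequal pair among the members in that group, at −1.19 for replicate 1 minus replicate 2 on the log2 scale, and its log2 fold changes of 1.12 in A20 livers and 0.81 in βgal livers were not called. Aurkb, the kinase of the chromosomal passenger complex, had 0.87 (adjusted p = 0.101). Aurka, which matures the centrosomes, had 0.76 (adjusted p = 0.0974). Plk1, the polo kinase that drives entry into mitosis, had 0.55 in A20 livers and −0.23 in βgal livers (adjusted p = 0.176 and 0.456).

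In the control of anaphase, 1 of 4 members rose after LR in A20 livers (0.63% of all genes). Ube2c, the ubiquitin-conjugating enzyme of the anaphase-promoting complex, read 1515 and 1343 in post-A20, 720.3 and 694 in pre-A20, 835 and 871 in post-βgal and 553 and 661 in pre-βgal. It rose 2.00-fold (log2 fold change 1.00 ± 0.16 (SE), adjusted p = 0.0391), and its value in βgal livers was 0.49 (adjusted p = 0.144). Both arrays after LR were above both arrays before LR for either vector. Cdc20, the activator of the complex, read 2086 and 1714 in post-A20, 1354 and 1267 in pre-A20, 1411 and 1134 in post-βgal and 2030.2 and 1234 in pre-βgal. The pre-βgal arrays of Cdc20 were unequal, and its value was 0.52 in A20 livers and −0.32 in βgal livers (adjusted p = 0.383 and 0.488). Pttg1, the securin that restrains separase, read 3426 and 2133 in post-A20, 2351 and 2234 in pre-A20, 2128 and 1890.4 in post-βgal and 3527 and 2251 in pre-βgal. Its replicates were unequal in post-A20 and in pre-βgal, and the groups overlapped after LR in A20 livers (log2 fold change 0.24, adjusted p = 0.744). Espl1, which is separase itself, had 0.41 in A20 livers (adjusted p = 0.19).

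Of 6 members that act at the spindle midzone and in cytokinesis, 2 rose in A20 livers after LR (0.63% of all genes). Ect2, the exchange factor that activates RhoA at the cleavage site, read 396 and 536 in post-A20, 194 and 216 in pre-A20, 236 and 257 in post-βgal and 222 and 195 in pre-βgal. It rose 2.16-fold (log2 fold change 1.11 ± 0.16 (SE), adjusted p = 0.0274), with 0.22 in βgal livers. Anln, the anillin scaffold of the contractile ring, read 233 and 255 in post-A20, 126 and 129 in pre-A20, 148 and 169 in post-βgal and 92.9 and 132 in pre-βgal and rose 1.81-fold (log2 fold change 0.86 ± 0.15 (SE), adjusted p = 0.0481). The other probe set of Anln had −0.06, so this rise too was read by 1 of 2. Racgap1, which pairs with Kif23 in the centralspindlin complex, had 0.62 (adjusted p = 0.0971), and Kif20a, the midzone kinesin that carries the passenger complex, had 0.63 (adjusted p = 0.175). Kif23 had 0.40 (adjusted p = 0.259) and Prc1, which bundles midzone microtubules, had 0.34 (adjusted p = 0.331).

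Among 7 spindle motors and microtubule proteins 1 rose in A20 livers after LR (0.63% of all genes). Kif11, the kinesin that pushes the spindle poles apart, read 339 and 373 in post-A20, 189 and 180.2 in pre-A20, 161 and 212 in post-βgal and 149.9 and 175 in pre-βgal. It rose 1.85-fold (log2 fold change 0.89 ± 0.15 (SE), adjusted p = 0.0399), and its 2 other probe sets had 0.63 and 0.49. Its value in βgal livers was 0.17, with overlapping arrays. Nusap1, a bundler of spindle microtubules, read 446 and 411 in post-A20, 255 and 284 in pre-A20, 294 and 306 in post-βgal and 246 and 270.3 in pre-βgal, just short of the threshold in A20 livers (log2 fold change 0.64 ± 0.12 (SE), adjusted p = 0.064). Averaged over both vectors it rose by 0.42 (adjusted p = 0.0366). Kif2c, which takes microtubules apart at the centromere, had 0.50 (adjusted p = 0.21). The 5 others, Kif2c included, lay between 0.09 for Kif4, the chromokinesin, and 0.71 for Ckap2, a spindle stabiliser (adjusted p = 0.806 and 0.0864).

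The switch that starts mitosis, the spindle checkpoint and the centromere proteins had no called member after LR in A20 livers (0.63% of all genes rose and 0.382% fell). Cdk1, the kinase of the switch, read 1353 and 1607 in post-A20, 781 and 1051 in pre-A20, 1269.8 and 1187 in post-βgal and 805 and 971 in pre-βgal. All 4 arrays after LR were above all 4 before it, with 0.69 in A20 livers (adjusted p = 0.161) and 0.47 in βgal livers (adjusted p = 0.228). Ccnb2, a cyclin that activates Cdk1, read 735 and 562 in post-A20, 531 and 609.7 in pre-A20, 326 and 389 in post-βgal and 360.1 and 506 in pre-βgal and overlapped between post-A20 and pre-A20 (log2 fold change 0.17, adjusted p = 0.76). Foxm1, a transcription factor that acts on these promoters with the MuvB complex, had the lowest value of the 44 members after LR in A20 livers. It read 514 and 397 in post-A20, 649 and 635 in pre-A20, 435 and 407 in post-βgal and 528 and 575 in pre-βgal, with −0.49 in A20 livers (adjusted p = 0.2) and −0.38 in βgal livers. Its 3 other probe sets had 0.17, 0.15 and −0.15 in A20 livers, so the probe sets of Foxm1 did not share a direction. The phosphatases that free Cdk1 had 0.32 for Cdc25c and −0.00 for Cdc25b.

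No checkpoint gene was called in any of the 7 comparisons. Mad2l1, which binds Cdc20 while chromosomes are unattached, read 511 and 711 in post-A20, 395 and 538 in pre-A20, 363 and 481 in post-βgal and 251 and 391 in pre-βgal. Its arrays overlapped between post and pre for either vector, with 0.38 after LR in A20 livers and 0.40 in βgal livers (adjusted p = 0.571 and 0.423). Bub3, which brings checkpoint kinases to the kinetochore, read 1665 and 1467 in post-A20, 1189 and 1363 in pre-A20, 2043 and 1859.9 in post-βgal and 1666 and 1485 in pre-βgal, with 0.29 and 0.31. The 3 other members, Bub1, Bub1b and Ttk, had log2 fold changes of 0.40, 0.32 and −0.02 in A20 livers. Of the centromere and passenger proteins, Cenpf had 0.61 (adjusted p = 0.0875) and Cenpa 0.23 (adjusted p = 0.605). Cenpe, the kinetochore motor, read 239.8 and 189.6 in post-A20, 148 and 124 in pre-A20, 186 and 166 in post-βgal and 270.0 and 167 in pre-βgal, with 0.60 in A20 livers and −0.26 in βgal livers. Birc5, the survivin subunit of the passenger complex, read 772 and 808 in post-A20, 517 and 545 in pre-A20, 517 and 372 in post-βgal and 753 and 387 in pre-βgal, with 0.56 and −0.29. None of these centromere and passenger genes was called.

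After LR, post-A20 livers had higher signals than post-βgal livers for most members, but no single member was called. The arrays stood apart for 39 of the 44 members above and for 1 below, Bub3, against 33.7% and 26.4% of all genes. The median log2 fold change of A20 over βgal was 0.39 against 0.03 over all genes, and 41 of 44 were positive. Limma called 0 members higher and 0 lower, and 0.0956% and 0.236% of all genes. At an unadjusted p under 0.05, 19 members were higher and none lower (10.1% and 9.56% of all genes), and the smallest adjusted p, of Kif11, was 0.0625. Leaving out either pre-βgal array let some members pass, although those arrays are in neither group compared. The variance is pooled over the 4 groups and then no longer holds the spread of that pair. The number of all genes that passed in those fits is not given here.

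The members farthest from 0 in this comparison were Mki67, at 0.89 (adjusted p = 0.221), Kif11, at 0.89, and Ect2, at 0.86 (adjusted p = 0.0699). Ccnb2 had 0.83 (adjusted p = 0.125) and both its A20 arrays after LR were above both βgal arrays after LR, at 735 and 562 in post-A20 against 326 and 389 in post-βgal. Birc5 had 0.82 (adjusted p = 0.198). Kif20a had 227 and 232 in post-A20 against 119 and 132 in post-βgal (0.80, adjusted p = 0.115). The members below 0 were Bub3, at −0.32, Cdc25b, at −0.12, and Kif23, at −0.02. All 8 roles had a positive median, from 0.23 over the 5 checkpoint genes to 0.60 over the 6 chromosome structure genes.

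Before LR the same genes did not stand higher in A20 livers. In pre-A20 against pre-βgal livers 1 of 44 members fell, none rose, 15 were positive and 29 negative, and the median log2 fold change was −0.16 against −0.03 over all genes. Limma called 0.714% of all genes higher and 1.78% lower. At an unadjusted p under 0.05, 0 members were higher and 6 lower (8.41% and 13.4% of all genes). The arrays stood apart for 7 above and 14 below (22.1% and 29.3% of all genes). Kif23, the motor of centralspindlin, read 369 and 295 in pre-A20 against 557 and 581 in pre-βgal (log2 fold change −0.76 ± 0.15 (SE), adjusted p = 0.0496). After LR it read 415 and 468 in post-A20 and 447 and 448 in post-βgal, a difference of −0.02. The call of Kif23 was at the edge of the threshold and rests on a single probe set. Its other probe sets read from 13.2 to 24.1 and from 7.24 to 26.4 over the arrays and did not pass the filter on low signal. Without pre-βgal replicate 2, 4 members were called, and without any 1 of the 7 other arrays none was.

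Top2a (−0.75, adjusted p = 0.0683), Mki67 (−0.71, adjusted p = 0.279), Cenpe (−0.59, adjusted p = 0.168) and Ncapd2 (−0.56, adjusted p = 0.281) were the next lowest in pre-A20 livers. All 4 had a higher signal on pre-βgal replicate 1 than on pre-βgal replicate 2. On the same arrays 6 of the 8 macrophage markers tested were lower in pre-A20 than in pre-βgal livers and 1 was higher at an unadjusted p under 0.05 (13.4% and 8.41% of all genes), with a median log2 fold change of −0.57. Of these markers Csf1r, the receptor for the macrophage growth factor CSF1, was called (−0.93, adjusted p = 0.0481). The arrays also differed in the integrity of the RNA. On the β-actin controls the 3′ end gave more signal than the 5′ end by a ratio of 7.0 on pre-βgal replicate 1, 3.64 in post-βgal replicate 1 and 1.27 to 1.62 on the 6 others. Without pre-βgal replicate 1 the median of the 44 members in pre-A20 against pre-βgal was −0.05, without pre-A20 replicate 1 it was −0.04, and without pre-βgal replicate 2 it was −0.22. With the log2 of this ratio as a covariate the median before LR was −0.04. In that fit 22 members were called after LR in A20 livers, where 608 of 17790 genes rose and 444 fell. In the fit with no covariate 112 genes rose and 68 fell. Both arrays with a high ratio are in the βgal groups. Without the covariate they add to the comparison of post-A20 with pre-A20 livers only through the variance pooled over the 4 groups. Mad2l1 had the highest value before LR, 0.53 (adjusted p = 0.298), with pre-A20 arrays at 395 and 538 against 251 and 391 in pre-βgal.

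**Figure D4:**
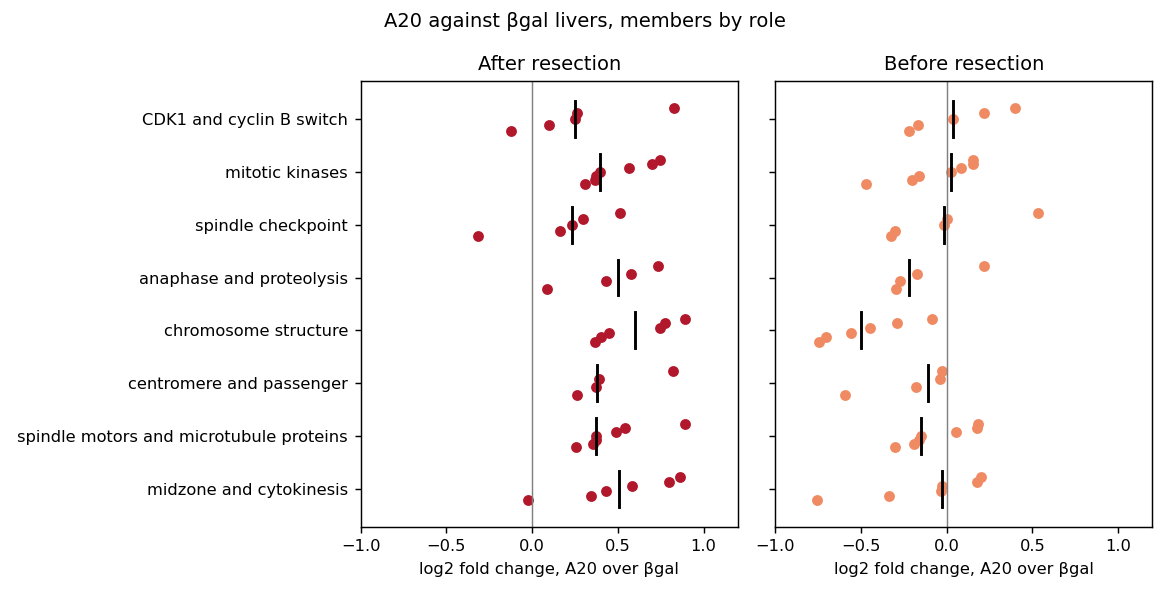
Log2 fold change of A20 over βgal livers (horizontal axes) after LR (left) and before LR (right), with 1 point per member in the row of its role and a black line at the median of the role. After LR the medians lie between 0.23 and 0.60, and before LR between −0.50 and 0.03.

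Averaged over both times, A20 livers had higher Nek2 (0.45, adjusted p = 0.0396) and Kif11 (0.53, adjusted p = 0.0337) than βgal livers. These were 2 members higher and 0 lower, where limma called 2.08% of all genes higher and 3.31% lower. At an unadjusted p under 0.05 it was 11 members higher and 2 lower (11.4% and 14.8% of all genes). Without any 1 of the 8 arrays other than pre-βgal replicate 2 no member was called, and without that array 8 were. Averaged over both vectors, 11 members rose after LR and 0 fell. They were the 9 of A20 livers with Plk4 and Nusap1, and limma called 2.83% of all genes higher and 1.93% lower. Without adjustment, at p under 0.05, 22 members were higher and 1 lower (10.7% and 10.2% of all genes). The count of 11 was 0 without either pre-A20 array, 1 without post-βgal replicate 2 or post-A20 replicate 2, 4 without post-βgal replicate 1 and 7 without post-A20 replicate 1. The 2 vectors entered this average unequally, with a members' median of 0.60 in A20 livers and 0.01 in βgal livers.

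Several probe sets of a member did not always move together. Of the 28 members with more than 1 probe set kept, 20 had probe sets of 1 direction after LR in A20 livers, 24 in post-A20 against post-βgal and 6 after LR in βgal livers. Over the 98 probe sets, 87 were positive after LR in A20 livers, with a median of 0.37. Called with p adjusted over all 42703 probe sets, 4 rose there, 1 each of Melk, Top2a, Ect2 and Kif11. Hmmr, a hyaluronan receptor that also binds the spindle, had 5 probe sets from 0.24 to 0.92 after LR in A20 livers, all positive. The 3 probe sets of Cdc20 had 0.46, 0.52 and 0.38. The 2 other probe sets of Top2a had 0.19 and 0.33, so all 3 were positive but the rise was read by 1 of them. The other probe sets had 0.48 and 0.32 for Plk4, 0.42 for Aurkb and 0.00 for Aurka. Among the checkpoint genes they had 0.65 for Bub1, −0.01 and 0.87 for Bub1b, 0.65 for Ttk, and 0.10, 0.15, −0.09 and 0.15 for Bub3. The probe set read for Ttk had −0.02 and that read for Bub1b had 0.32, so the probe sets of both genes differed widely. For chromosome and centromere genes they had 0.04 for Ncapd2, 0.29 and 0.56 for Smc4, −0.25 and 0.29 for Cenpa, 0.76 for Cenpe, and 0.15 and 0.10 for Cenpf. For the spindle they had 0.65, 0.52 and 0.04 for Tpx2, 0.48, 0.19 and 0.08 for Kif2c, and 0.07 for Nusap1. The rest were 0.34 for Prc1, 0.93 for Racgap1, 0.20 for Cdc25c, and 0.18 and 0.36 for Pttg1.

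A wider list of mitosis genes held no member, and its 92 symbols included both names of 1 gene, Pimreg and Fam64a. Of the 92 symbols, 88 were tested. Of these, 3 rose and 0 fell after LR in A20 livers (0.63% and 0.382% of all genes). Arhgap11a, a RhoA regulator of cytokinesis, read 397 and 382 in post-A20, 195 and 177 in pre-A20, 300.2 and 283 in post-βgal and 259 and 215 in pre-βgal (log2 fold change 1.01, adjusted p = 0.0182). Cep55, the midbody scaffold, had 0.66 (adjusted p = 0.0272), and Spag5, the spindle protein astrin, had 0.57 (adjusted p = 0.0443). The median of these 88 genes was 0.26 after LR in A20 livers and 0.01 in βgal livers. For βgal livers 0 were called, and 8 were higher and 8 lower at an unadjusted p under 0.05 (9.74% and 12.4% of all genes). In post-A20 against post-βgal livers their median was 0.20 and 0 were called. At an unadjusted p under 0.05, 28 were higher and 3 lower (10.1% and 9.56% of all genes). The gene nearest a call there was Esco2, which acetylates cohesin, at 294 and 368 in post-A20 against 98.9 and 135 in post-βgal (log2 fold change 1.39, adjusted p = 0.0517). In pre-A20 against pre-βgal livers 1 rose and 2 fell (0.714% and 1.78% of all genes). Those that fell were Knl1 (−0.92) and Ccnf (−0.80). Pimreg, a mitotic regulator also known as Fam64a, read 711 and 831 in post-A20, 1814 and 2074 in pre-A20, 393 and 234 in post-βgal and 325 and 309 in pre-βgal and was 2.55 higher on the log2 scale in pre-A20 than in pre-βgal (adjusted p = 0.0182). After LR it had the lowest value of its list in A20 livers, −1.32 (adjusted p = 0.0543).

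Genes that regulate these promoters had values in both directions. Of 24 tested of 25 listed, 0 rose and 1 fell in pre-A20 against pre-βgal livers (0.714% and 1.78% of all genes). The 1 that fell was Cdkn1a. It read 2313 and 1882 in post-A20, 1008 and 775 in pre-A20, 4669 and 3864 in post-βgal and 3559.6 and 2700.0 in pre-βgal, a log2 fold change of A20 over βgal of −1.79 (adjusted p = 0.0202) before LR and −1.02 (adjusted p = 0.0928) after LR. After LR in A20 livers its log2 fold change was 1.22 (adjusted p = 0.055), with both post-A20 arrays below both pre-βgal arrays. E2f8, an atypical E2F repressor, rose after LR in A20 livers (0.92, adjusted p = 0.0349), with 782 and 875 in post-A20, 437 and 424 in pre-A20, 949 and 923 in post-βgal and 644 and 612 in pre-βgal. With both times averaged, 1 of the 24 was higher and 3 were lower in A20 than in βgal livers (2.08% and 3.31% of all genes). Rbl2, which codes for the p130 repressor, was higher (1.10, adjusted p = 0.0313). The lower ones were Cdkn1a (−1.41, adjusted p = 0.0146), E2f7, a relative of E2f8 (−0.74, adjusted p = 0.0176), and Mybl1 (−0.74, adjusted p = 0.0404). Mybl2, which codes for B-MYB, had 0.12 after LR in A20 livers and −0.32 in βgal livers (adjusted p = 0.679 and 0.157).

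Genes of DNA replication, the stage before mitosis, gave other values than the mitosis genes when A20 and βgal livers were set side by side. Of 48 listed genes 46 were tested. After LR their median log2 fold change of A20 over βgal was −0.18, against 0.39 for the G2/M and mitosis genes. Of the 46, 32 were negative and 0 were called (0.0956% of all genes higher and 0.236% lower). Before adjustment 3 were higher and 11 lower at p under 0.05 (10.1% and 9.56% of all genes). Before LR the median was −0.28, and Mcm10 rose (1.47) whereas Mcm6 (−1.23) and Lig1 (−1.33) fell (0.714% of all genes rose and 1.78% fell). After LR in βgal livers the median was 0.27, against 0.01 for the G2/M and mitosis genes, with 37 of 46 positive. There 0 were called (1.5% of all genes higher and 0.748% lower). At an unadjusted p under 0.05, 9 were higher and 1 lower (9.74% and 12.4% of all genes). After LR in A20 livers the median was 0.31, against 0.60, and 1 rose and 1 fell (0.63% and 0.382% of all genes). Mcm6, a subunit of the replicative helicase, read 2059 and 2909 in post-A20, 863 and 936 in pre-A20, 2594 and 2857 in post-βgal and 2027 and 2248 in pre-βgal and rose by 1.43 on the log2 scale in A20 livers (adjusted p = 0.0255). Mcm10, which helps to start that helicase, read 849.5 and 852 in post-A20, 2531 and 3162 in pre-A20, 922 and 599 in post-βgal and 1149.8 and 887 in pre-βgal and fell after LR in A20 livers (log2 fold change −1.71, adjusted p = 0.0272). The difference between the 2 lists was not tested.

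Markers of other liver cells were read on the same arrays. Those of B and plasma cells, erythroid cells, endothelial cells, stellate cells and cholangiocytes were read as well and are not described here. The 8 macrophage markers had a summed signal of 6761 and 5978 in post-A20 against 4336 and 4298 in pre-A20, and of 5200.0 and 6587 in post-βgal against 8116 and 7418 in pre-βgal. Their median log2 fold change was 0.50 after LR in A20 livers and −0.40 in βgal livers, and in A20 livers 5 of 8 were higher and 1, Marco (−0.47), was lower at an unadjusted p under 0.05 (8.88% and 6.54% of all genes), none of them called. The 13 T and NK cell markers tested of 14 summed to 3759 and 3466 in post-A20 against 3024 and 3003 in pre-A20, and to 3045 and 3356 in post-βgal against 3286 and 3640 in pre-βgal. The 8 neutrophil markers tested of 10 summed to 3054 and 2799 in post-A20, 2409 and 2299.8 in pre-A20, 5332 and 6124 in post-βgal and 4361 and 3707 in pre-βgal. After LR, S100a8 and S100a9 were the 2 neutrophil markers called in A20 against βgal livers, whereas the median log2 fold change of the 8 was −0.08, 3 of them were positive and Cxcr2 was the highest (0.42, adjusted p = 0.259). The 7 hepatocyte markers tested of 8 summed to between 77676 and 91362 on all 8 arrays. No marker tested was at 0 on any array. The part of these cells in the members' signals was not tested.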

How the data were processed

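Liver RNA was measured on Affymetrix Mouse Genome 430 2.0 arrays. The authors deposited 1 signal intensity per probe set and array, on a linear scale, in a single table of 45101 probe sets. The methods of the study name dChip with invariant-set normalization of perfect-match probes, whereas the submitters' processing notes name MAS5, and the sources used here do not settle which produced these values. Array medians lay between 153 and 166, and the number of arrays limits the precision.

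The 64 control probe sets were left out. Signals were taken as log2(signal + 16), and a probe set was kept where any group averaged 40 or more, which left 42703. Symbols came from GEO's platform annotation, which gave 34945 probe sets 1 symbol, 932 several and 9160 none. Each of 17790 genes was read through its probe set of highest mean signal. One mean per group was fitted on all 8 arrays with limma 3.58.1 in R 4.3.3 (empirical Bayes with a trend of the variance on intensity, 4 residual degrees of freedom, two-sided), for 7 comparisons, and p-values were adjusted by Benjamini-Hochberg over all genes. The same steps were tested on simulated data with independent noise and with changes placed in random genes of the post-A20 arrays only. The simulated data held no difference in RNA integrity between arrays and no variation shared between genes, so the test does not speak to either. Promoter sequences were taken from RefSeq.

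The members and the gene lists were chosen with earlier results of these data known. Members named with the value on every array were those called in any comparison, the 5 with the largest change among those whose arrays did not overlap in each comparison of 2 groups, and the 5 of highest mean signal. Other members were added for their role. From the other lists, genes were named from among the 4 with the smallest p in a comparison, except Mybl2, which was named for its role. The alternatives were other normalizations, filters, offsets, variance models and readings of several probe sets, the replicate number as a block, the β-actin ratio as a covariate, and leaving out arrays.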

Additional observations from a re-analysis of the deposited data

How the results depend on the processing

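In the alternatives counted here, no value of a named member changed sign past the threshold. Of 845 alternative values of named members, 664 stayed on their side of the threshold, 156 no longer passed it and 25 came to pass it. Reading a member through another single probe set was not among these values. After LR in A20 livers some other probe sets of Smc2, Anln and Nek2 had negative values, and those of Kif11, Ncapg and Top2a were positive. With the titles' replicate number as a block, the called members numbered 0 for pre-A20 against pre-βgal, 1 for post-A20 against post-βgal, 4 for A20 averaged over both times, 8 after LR in A20 livers and 12 for LR averaged over both vectors. In that fit 117 of 17790 genes rose after LR in A20 livers. The sources do not say whether the removed lobes and the remnants under 1 number came from the same mice. The main fit took all 8 pools as independent. Deviations of same-numbered arrays correlated at r = 0.62 between post-βgal and pre-βgal and at −0.02 between post-A20 and pre-A20. The βgal arrays numbered 1 are also those with the high β-actin ratios, 7.0 in pre-βgal and 3.64 in post-βgal. The part of shared mice or of this ratio in the correlation was not tested.

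Before LR the count of 1 became 0 with quantile normalization, median centring, a minimum signal of 100, only the 4 arrays compared or without both βgal arrays numbered 1, and 2 with no variance trend, the mean of all probe sets or the β-actin covariate. Its median became −0.0765 with quantile normalization, −0.0708 with the mean of probe sets, −0.0455 over all probe sets, −0.0421 with the covariate and −0.0524 without both βgal arrays numbered 1. After LR the count of 0 became 1 with quantile normalization, no trend or only the 4 arrays, 2 with the mean of probe sets, 3 with variances moderated over genes only (chosen after seeing the data) and 12 with the covariate, and the median became 0.46 with quantile normalization and 0.46 with the covariate. In βgal livers the count became 2 with the covariate, and the median became 0.11 without both βgal arrays numbered 1. In A20 livers the count of 9, where 112 of 17790 genes rose, became 22 with the covariate, where 608 rose. With the mean of all kept probe sets of a gene it was 6, where 160 of 17790 genes rose. Of the 9, Ect2, Melk, Top2a and Ube2c were still called there, and Anln, Kif11, Ncapg, Nek2 and Smc2 were not. Bub1 and Racgap1 came in. The count became 4 over probe sets, where 135 of 42703 probe sets rose. The median there became 0.43 with the mean of probe sets and 0.37 over all probe sets. The interaction gave 1 call with the covariate, and medians of 0.46 with median centring, 0.48 with the mean of probe sets and 0.41 over all probe sets. A20 averaged over both times gave 4 calls with quantile normalization, the mean of probe sets or any probe set, 1 without both βgal arrays and 5 with variances over genes only. LR averaged over both vectors gave 7 calls with the mean of probe sets, at a median of 0.20, a median of 0.15 over all probe sets, and 22 calls with the covariate. Beside these counts the number of all genes called is given only for A20 livers after LR, and the other counts have no such share. The causes were not tested.

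Leaving out each array in turn gave 0 to 4 called members before LR (medians −0.216 to −0.0417), 0 to 8 after LR (0.39 to 0.42), 0 to 1 in βgal livers (−0.0101 to 0.0920), 0 to 15 in A20 livers (0.55 to 0.61), 0 for the interaction (0.50 to 0.59), 0 to 8 for A20 averaged over both times (0.11 to 0.20) and 0 to 14 for LR averaged over both vectors (0.27 to 0.34). In A20 livers the number of all genes called changed together with the number of members in these fits. For the other comparisons that number is not given. With 2 pools per group, a difference close to the spread of a pair was not detectable.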

Other observations

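Beside the probe set through which Smc2 was read, another probe set of the gene went the other way before LR. It read 138 and 220.4 in post-A20, 222 and 224 in pre-A20, 191 and 163 in post-βgal and 93.1 and 94.7 in pre-βgal, and it was 1.12 higher on the log2 scale in pre-A20 than in pre-βgal livers (adjusted p = 0.0371 over all probe sets kept, limma), where the probe set read for the gene had −0.09. It was the 1 probe set of the members called in that comparison. After LR in βgal livers both probe sets were positive, at 0.81 and 0.64, and after LR in A20 livers they had −0.32 and 1.17. This gene was singled out after its values were seen.

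Among the kinetochore genes outside the list of members, Knl1, the scaffold that recruits the checkpoint kinases, read 304 and 282 in pre-A20 against 553 and 586 in pre-βgal and was lower by limma (log2 fold change −0.92, adjusted p = 0.0353). Ccnf, which codes for an F-box cyclin, read 388 and 341 in pre-A20 against 657 and 636 in pre-βgal (log2 fold change −0.80, adjusted p = 0.0498). Wee1, the kinase that holds Cdk1 back, read 723 and 871 in post-A20, 768 and 898 in pre-A20, 473 and 591 in post-βgal and 423 and 511 in pre-βgal and was higher in A20 than in βgal livers when both times were averaged (0.69, adjusted p = 0.0338).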
